A study of Mus musculus with 6 samples.

Results

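H2-Q7 and Mzb1 are 2 immune transcripts of the mouse, and their probes were followed here among the 50 probes of a circular RNA array that the files pair with an mRNA accession. The probe of H2-Q7 carries accession NM_010394 and the probe of Mzb1 carries NM_027222, and each was printed as 10 spots on every array. Both were chosen because they were higher in treated than in control endometrium on these arrays, so that difference is given as a description, with no test.

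Endometrium was taken on day 4 of pregnancy, around implantation, from female mice of a strain that the labels leave unnamed. Their labelled age is 4 weeks. Collection followed 20 days of injections and mating on day 21, so this is unlikely to be the age at collection. The DHEA group received daily injections of dehydroepiandrosterone (6 mg for each 100 g of body weight), an androgen precursor, in 0.2 mL of soybean oil for 20 days, a regimen used as a mouse model of polycystic ovary syndrome. The control group received 0.2 mL of the same oil, and mice of both groups were mated on day 21. The embryos were removed, and each of the 6 arrays held RNA pooled from 3 mice, 3 arrays per group. The labels do not state that pools of a group came from separate mice, so the spread between arrays may be partly technical. RNase R, which destroys linear RNA from its ends, had been applied to the RNA of both groups before random-primed labelling with Cy3. The 2 probes therefore read what remained after digestion, and whether they read linear transcripts or circles that hold the same exons was not tested.

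Major histocompatibility complex class I molecules show peptides to CD8 T cells and serve as ligands for receptors of natural killer cells. H2-Q7 is a nonclassical gene of this family, and with its close copies it encodes the Qa-2 antigen, which in embryos is linked to the rate of early cleavage. Mzb1 is a chaperone of the endoplasmic reticulum in marginal zone B cells and plasma cells, where it helps antibody assembly and secretion. In the uterus, leukocytes change in number and kind around implantation, and in bulk tissue fewer cells of a type cannot be told apart from less RNA per cell.

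H2-Q7 belongs to a family of near copies. The RefSeq gene table (assembly GRCm38.p6) lists 10 H2-Q genes, 8 of them protein coding, and gives Qa-2 as another name of 3 of them, H2-Q7, H2-Q8 and H2-Q9. Whether the H2-Q7 probe also reads transcripts of its relatives was not tested. For some class I genes the likeness extends to the promoter, which is shown for that reason. No separate promoter stretch of H2-Q8 or H2-Q9 was compared. The 250 bases before the start of H2-Q7, at chr17:35438905-35439154 on the plus strand (GRCm38.p6, RefSeq), are printed with 2 runs of letters in capitals that it shares exactly with other class I promoters. The first spans a box of the kind bound by NF-kappaB, and the second spans the interferon response box known from class I genes.

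H2-Q7: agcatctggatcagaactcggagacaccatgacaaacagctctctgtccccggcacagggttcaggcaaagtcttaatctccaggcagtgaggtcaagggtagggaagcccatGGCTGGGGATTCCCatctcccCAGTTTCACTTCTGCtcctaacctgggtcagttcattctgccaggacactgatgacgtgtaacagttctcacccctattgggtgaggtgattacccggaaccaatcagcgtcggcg

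The best local alignment of this stretch with the promoter of H2-Q6, the neighbouring gene, held 205 identical bases in 211 columns (97.2%). Against the promoter of H2-K1, a classical class I gene that presents peptides on nearly all cells, it held 164 in 190 columns (86.3%). Against H2-D1, the other classical gene measured in this way, it held 181 in 214 columns (84.6%). The likeness was not general, since the best alignment with H2-Q2 held 34 in 49 columns (69.4%). The 40 bases that end with the second run are set side by side to show how far the family shares them, with the same runs in capitals. Of 16 class I genes compared, 6 hold the second run, and H2-D1 and H2-Q4 among them are not printed.

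H2-Q7, chr17:35439014-35439053, plus strand: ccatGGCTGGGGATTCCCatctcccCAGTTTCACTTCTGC
H2-Q6, chr17:35424670-35424709, plus strand: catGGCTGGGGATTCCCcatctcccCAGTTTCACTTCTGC
H2-K1, chr17:34000426-34000465, minus strand: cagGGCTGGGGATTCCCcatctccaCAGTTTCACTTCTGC
H2-Q10, chr17:35469906-35469945, plus strand: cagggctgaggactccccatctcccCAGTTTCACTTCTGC

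The run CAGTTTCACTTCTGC is the longest that H2-Q7 shares with the 5 class I promoters most like it, those of H2-Q6, H2-Q4, H2-D1, H2-Q10 and H2-K1. Searched on both strands, it occurred in 7 of 32544 RefSeq promoter stretches of the same length (0.0215%), 2 of them at overlapping starts of H2-K1 and 1 at each of the other 5 genes named. The run GGCTGGGGATTCCC occurred in 5 stretches (0.0154%), 2 of H2-K1 and 1 each of H2-Q7, H2-Q6 and H2-D1. H2-Q4 and H2-Q10 have the interferon box without this run beside it. The runs were chosen because they are shared, and the matches describe letters only.

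On the array, the H2-Q7 probe was bright and the Mzb1 probe was dim. The processed intensity of H2-Q7, the scanner's background-subtracted brightness averaged over unflagged spots on the log scale, was 1280, 1527 and 1935 on DHEA arrays 1, 2 and 3. It was 986, 849 and 938 on control arrays 1, 2 and 3. Every DHEA array thus lay above every control array before any scaling between arrays, as for 12 of the 50 mRNA-accession probes (24.0%). For Mzb1 the processed intensity was 154, 134 and 123 on the DHEA arrays. It was 72.2, 99.8 and 106 on the control arrays, again with no overlap. All 10 spots of both probes were well above background on all 6 arrays, with a mean local background of 17.8 to 19.9 units per array, and no spot was near the scanner's saturation value of 778251. Negative-named probes, of which there are 15, passed that flag at 94.3% of their spots too, and it is therefore no measure of specific signal.

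**Figure D1:**
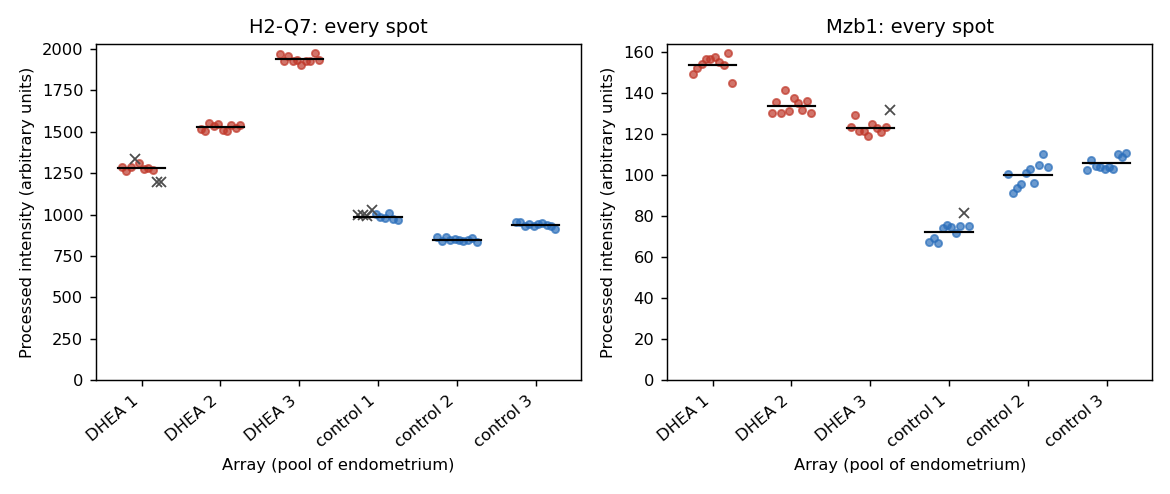
Processed intensity (vertical axis, arbitrary units, from 0) of each of the 10 spots of H2-Q7 (left) and Mzb1 (right) on the 3 DHEA (red) and 3 control (blue) arrays. Black bars are averages over unflagged spots and crosses are flagged spots that were left out. Spots of 1 array lie close together, and the DHEA 3 array is the highest for H2-Q7 and the lowest of the DHEA arrays for Mzb1.

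Arrays differed in brightness as a whole. The 75th percentile of circRNA probes, used to scale each array, was lowest on control 1 at 219 units and highest on control 3 at 299.8. After scaling, the log2 level of H2-Q7 relative to that percentile was 2.13, 2.54 and 2.81 on DHEA arrays 1, 2 and 3, and 2.17, 1.72 and 1.65 on control arrays 1, 2 and 3. The groups then overlapped by a margin of 0.041, since DHEA 1 fell just below control 1. Under 10 other scalings, background corrections and spot averages the H2-Q7 groups overlapped in every case but 1, which was no scaling, and the Mzb1 groups overlapped in none. The scaled level was 2.49 ± 0.34 in DHEA and 1.84 ± 0.28 in control endometrium (SD, n = 3 each), a log2 difference of 0.65, or 1.57-fold. Its standard error from limma was 0.21. Limma draws the variance of each probe toward that of the other probes, so this value does not follow from the 2 SDs alone. Leaving out 1 array at a time gave a difference of 0.49 (without DHEA 3) to 0.83 (without DHEA 1).

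The scaled log2 level of Mzb1 was -0.93, -0.97 and -1.17 on DHEA arrays 1, 2 and 3. On control arrays 1, 2 and 3 it was -1.60, -1.37 and -1.50. The groups did not overlap, and the nearest arrays, DHEA 3 and control 2, were 0.20 apart. The means were -1.02 ± 0.13 in DHEA and -1.49 ± 0.12 in control endometrium (SD, n = 3 each), a log2 difference of 0.47, or 1.39-fold. Its standard error from limma, with the variance drawn toward the other probes in the same way, was 0.14. With 1 array left out the difference was 0.42 to 0.54, and each of the 9 pairings of a DHEA with a control array showed Mzb1 higher in DHEA. Groups that do not overlap fix the direction in all of these, so the direction adds nothing.

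Of the 2 genes, Mzb1 alone had groups that did not overlap after scaling. Among all 50 mRNA-accession probes the groups did not overlap for 15, every one higher in DHEA (30.0%). Since both genes were chosen on this contrast, nothing is read from their count. Limma called 0 of the 50 probes past a Benjamini-Hochberg adjusted p of 0.05, while before adjustment 14 lay under 0.05 (28.0%), with 13 higher in DHEA (26.0%). The same fit without empirical Bayes called 0 as well, with 11 at an unadjusted p under 0.05. These counts moved with the arrays and the processing: 4 passed the adjusted threshold without control 2 and 4 with normexp correction, 1 without control 1 or control 3, and the 14 became 6 without DHEA 2, 9 without DHEA 1, control 1 or control 3, and 3 with the slide column as a block. In order of the difference, H2-Q7 stood in place 3 from the top and Mzb1 in place 7. The median difference over the 50 probes was 0.093 and 31 of them were higher in DHEA (62.0%).

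**Figure D2:**
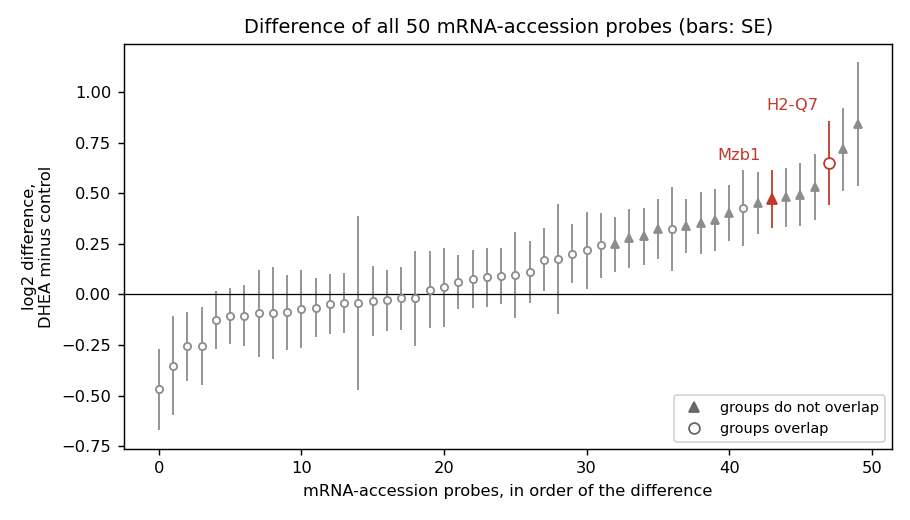
Log2 difference, DHEA minus control, of the scaled level of all 50 mRNA-accession probes in ascending order, with bars of 1 standard error from limma. Filled triangles are probes whose groups did not overlap and open circles those whose groups did. H2-Q7 (0.65) and Mzb1 (0.47) are in red, near the upper end from which they were chosen.

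The other 48 mRNA-accession probes were on average higher in DHEA arrays too, at -0.75 ± 0.13 against -0.88 ± 0.08 in control arrays (mean scaled log2 level, SD, n = 3 each). That is a difference of 0.13, and its part in the values of H2-Q7 and Mzb1 was not tested. Set against the mean of these 48 probes on the same array, H2-Q7 was 0.52 higher in DHEA and Mzb1 0.34 higher. Relative to the 48, Mzb1 stood at -0.26, -0.29 and -0.27 on DHEA arrays 1, 2 and 3, a spread of 0.020 (SD). On control arrays 1, 2 and 3 it stood at -0.76, -0.40 and -0.69, all below the DHEA arrays and wider apart. With arrays scaled to the mRNA-accession probes, the groups did not overlap for 14 of the 50, in either direction. H2-Q7 ranged from 2.80 to 3.71 over the mean of the 48 on DHEA arrays and from 2.46 to 3.01 on control arrays, with overlap.

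The array also carries 15 probes named as negatives. H2-Q7 was brighter than all 15 on every array, by 2.77 to 4.17 on the log2 scale over the brightest of them. Relative to the median negative-named probe its log2 level averaged 6.19 ± 0.52 on DHEA arrays against 5.44 ± 0.15 on control arrays (SD, n = 3 each). Mzb1 was close to the upper edge of these probes. It exceeded the brightest negative by 0.047, 0.081 and 0.20 on DHEA arrays 1, 2 and 3 and by 0.14 on control 2. It was dimmer than the brightest negative by a log2 margin of -0.33 on control 1 and -0.38 on control 3, where it exceeded 14 of 15. Above the median negative, Mzb1 stood at 2.67 ± 0.09 on DHEA arrays against 2.10 ± 0.23 on control arrays (SD, n = 3 each), and its lowest DHEA value (2.57) was above its highest control value (2.27). With arrays scaled to the mean of the negative-named probes, the groups did not overlap for 17 of the 50 mRNA-accession probes, all higher in DHEA (34.0%). The negative-named probes themselves differed by -0.29 to 0.21 between the groups, with a median of -0.031, and 5 of 15 were higher in DHEA. The groups did not overlap for 1 of the 15, which was higher in DHEA by 0.21. Brightness depends on a probe's sequence as well as on its target, so these gaps are not abundances.

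**Figure D3:**
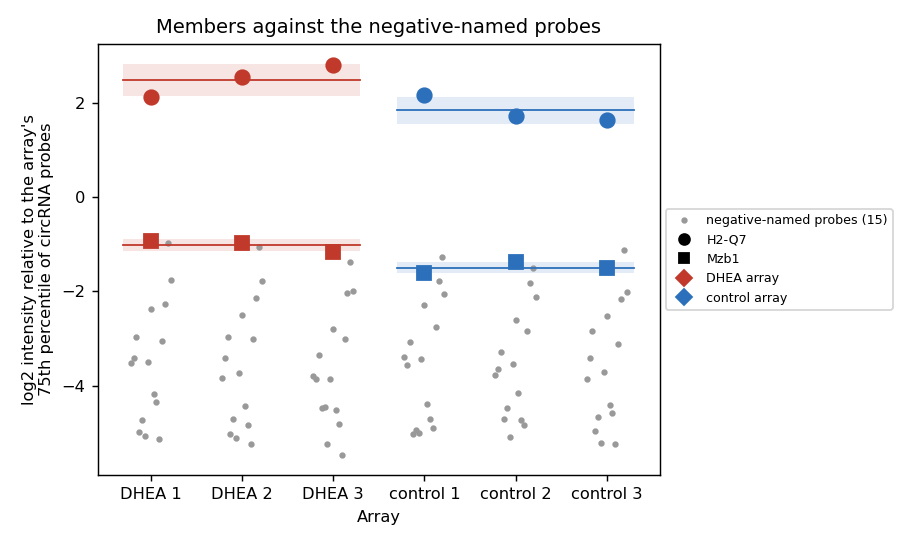
Scaled log2 intensity (0 is the 75th percentile of circRNA probes of the array) of H2-Q7 (circles), Mzb1 (squares) and the 15 negative-named probes (grey points) on each array. Lines and bands are group means and 1 SD over 3 arrays. H2-Q7 lies far above the negatives on every array, and Mzb1 lies at their upper edge.

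The genes differed in which arrays carried the difference. Among DHEA arrays, DHEA 3 had the highest H2-Q7 level (0.31 above its group mean) and the lowest Mzb1 level (-0.15 from its group mean), and DHEA 1 had the lowest H2-Q7 level (-0.37) and the highest Mzb1 level (0.093). Among control arrays, control 1 had the highest H2-Q7 level (0.32 above its group mean) and the lowest Mzb1 level (-0.11 from its group mean). The log2 ratio of H2-Q7 to Mzb1 within an array does not change with a scaling that subtracts 1 value per array, as here. It was 3.06, 3.51 and 3.98 on DHEA arrays 1, 2 and 3 and 3.77, 3.09 and 3.15 on control arrays 1, 2 and 3, with overlap (3.52 ± 0.46 against 3.34 ± 0.38, SD, n = 3 each).

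Unflagged spots on 1 array agreed far more closely than arrays of a group. Spots flagged as non-uniform or as outliers were left out first, which can narrow the spot SD. For H2-Q7 these were 3 of 10 spots on DHEA 1 and 4 of 10 on control 1, and for Mzb1 1 spot each on DHEA 3 and control 1. For H2-Q7 the spot SD was 0.016 to 0.024 on the log2 scale, against an SD of 0.31 between arrays of a group, a ratio of 16.5. For Mzb1 the spot SD was 0.033 to 0.084 and the SD between arrays 0.12, a ratio of 2.22. Over all mRNA-accession probes the median spot SD was 0.046, and H2-Q7 lay below it on every array, both with flagged spots left out. Compared at the same spot positions after scaling, H2-Q7 was higher on the DHEA array at 66 of 70 positions over the 9 pairings. The other 4 were all those shared by DHEA 1 and control 1, the only arrays with flagged H2-Q7 spots. Before scaling H2-Q7 was higher at 70 of 70, so these 4 turn on the scaling between arrays. Mzb1 was higher at 84 of 84 positions before and after scaling. Spots of 1 array share a hybridisation and its scaling, so these counts are not replication.

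Each array carries a barcode of 2 numbers, read here as its row and column on a slide. By this reading there were 2 rows, and row 2 held DHEA arrays alone. Whether all of them lay on 1 slide was not established. In the column with DHEA 2 and control 1, the log2 difference was 0.38 for H2-Q7 and 0.63 for Mzb1. In the column with DHEA 3 and control 2 it was 1.09 for H2-Q7 and 0.20 for Mzb1. In row 1, DHEA 1 differed from the mean of the 3 control arrays by 0.28 for H2-Q7 and 0.56 for Mzb1. Both genes were higher in DHEA in all 3 of these comparisons. For Mzb1 this follows from groups that do not overlap, and both genes were chosen on this contrast, so nothing is read from it. The gene with the larger difference was Mzb1 in the first and the third and H2-Q7 in the second. The part of slide position in these values was not tested.

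**Figure D4:**
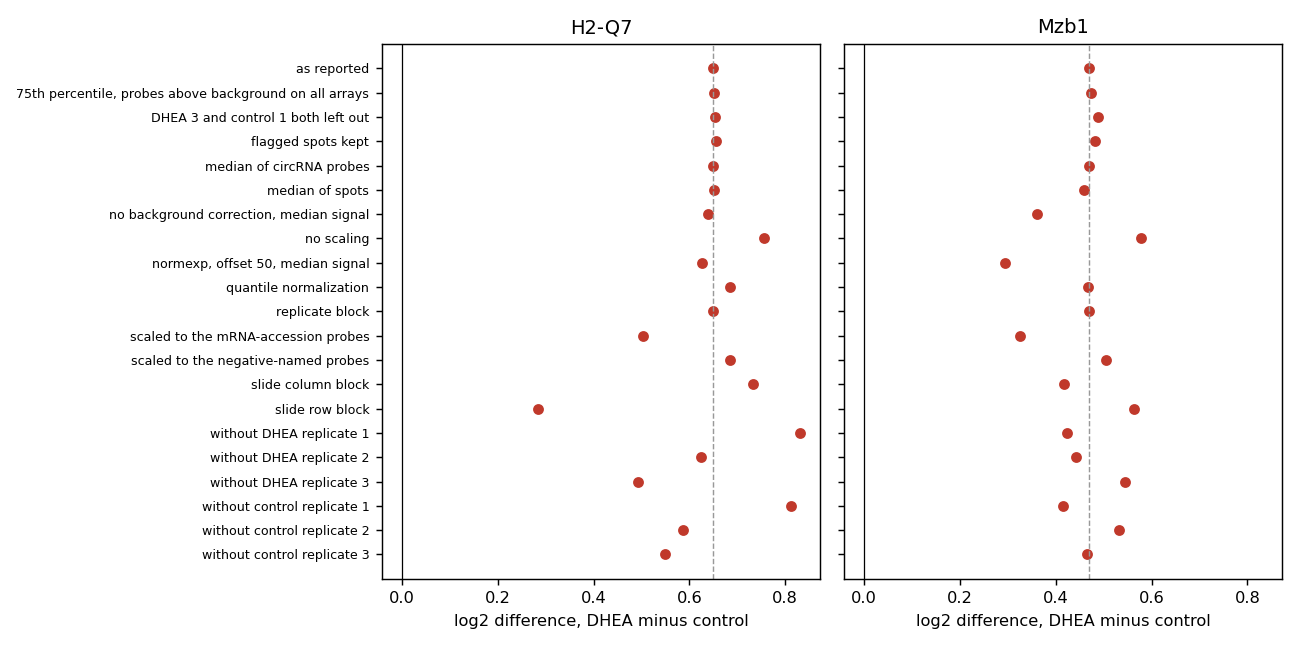
Log2 difference, DHEA minus control, of H2-Q7 (left) and Mzb1 (right) as reported (dashed line) and under each alternative scaling, background correction, spot average, block or omitted array. All points lie above 0, from 0.28 to 0.83 for H2-Q7 and from 0.29 to 0.58 for Mzb1. Both genes were chosen for a positive difference on these arrays.

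Profiles over the 6 arrays were compared by the root mean square difference of scaled log2 levels, each centred on its own mean, among the 43 other probes with a gene symbol. Closest to Mzb1 was Hyal3, of the hyaluronidase family, at 0.062. Next came Tm9sf1, a transmembrane 9 superfamily member, at 0.075, and Lhx1, a homeobox transcription factor, at 0.090, against a median of 0.29 over the 43 probes. Closest to H2-Q7 was Apoe, a lipid carrier, at 0.30, followed by Hyal3 at 0.33 and Tm9sf1 at 0.34, against a median of 0.44. H2-Q7 was therefore not matched by any probe as closely as Mzb1 was by Hyal3. Hyal3 was -0.47, -0.47 and -0.69 on DHEA arrays 1, 2 and 3 and -0.96, -0.87 and -1.02 on control arrays 1, 2 and 3 (scaled log2 level). Apoe was 2.83, 2.85 and 2.59 on the DHEA arrays and 2.72, 2.08 and 2.18 on the control arrays. Apoe shared with H2-Q7 a high level on control 1 that overlapped the DHEA arrays.

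**Figure D5:**
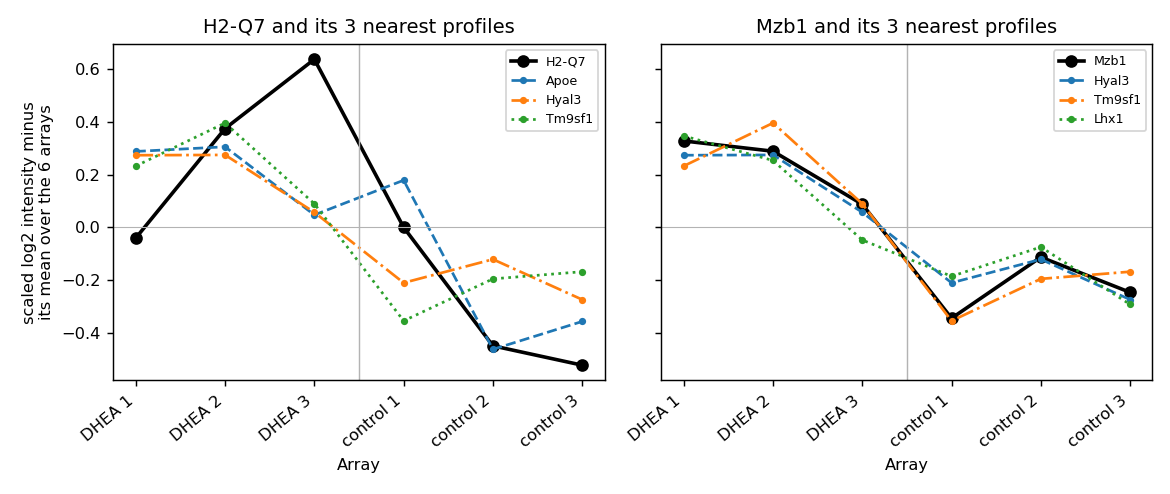
Scaled log2 level minus its mean over the 6 arrays for H2-Q7 (left) and Mzb1 (right), each with its 3 nearest probes. Lines join arrays, which have no order, to guide the eye. The 3 neighbours of Mzb1 lie at root mean square differences of at most 0.090, while H2-Q7 stands at 0.64 on DHEA 3, well above its own 3 neighbours there.

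The array offers little else on immune cells. Of 41 genes of class I antigen presentation, H2-Q7 was the 1 with a named mRNA-accession probe, and of 26 genes of B cells and plasma cells Mzb1 was the 1. None of 36 genes of other leukocytes, 21 of the interferon response or 28 markers of endometrial cells had such a probe, so the labelled tissue could not be checked against its markers and no leukocyte level can be set beside these values. Among the remaining probes, Il2, the T cell growth factor, and Gsdmd, the pore-forming protein of pyroptosis, were looked at after their values were seen. Il2 differed by 0.17 on the log2 scale (SE 0.16), with -0.66, -0.93 and -1.06 on DHEA arrays 1, 2 and 3 and -1.10, -0.91 and -1.15 on control arrays 1, 2 and 3. Gsdmd differed by 0.11 (SE 0.15), and for both genes the groups overlapped.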

How the data were processed

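RNA from 6 pools of mouse endometrium was hybridised to 1-colour Agilent arrays. The authors extracted the scans with Agilent Feature Extraction 11.0.1.1 on an mm9 design, per the file headers, and deposited spot intensities that are background-subtracted and not scaled between arrays. Limma is named in the submitters' processing notes. The series table covers circRNA probes alone and was not used here.

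Groups and replicate numbers came from the sample titles. Spots flagged as non-uniform or population outliers were dropped, log2 processed intensities were averaged per probe, and each array's 75th percentile over circRNA probes was subtracted. All 50 mRNA-accession probes were fitted with limma 3.58.1 in R 4.3.3 (lmFit, eBayes, Benjamini-Hochberg over the 50), which gave the standard errors and the counts. Only the limma fit was run on simulated probe levels with known differences, so the spot averaging and the scaling were not covered. RefSeq (GRCm38.p6) named 44 of the 50 accessions. Promoters were matched by symbol and aligned locally with Biopython 1.88. A planned comparison of protein sequences was not run.

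The 2 genes, the lists and the alternatives were chosen with earlier results of these data known. The named genes are these 2, any list gene with a probe, and the 3 nearest profiles of each. Il2 and Gsdmd fall outside this rule and were added after their values were seen. The number of arrays limits the precision. Same-numbered arrays had deviations that correlated across the 50 probes at 0.20, -0.47 and -0.036, so the numbers were not taken to pair them.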

Additional observations from a re-analysis of the deposited data

How the results depend on the processing

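Over 20 alternatives each, the log2 difference stayed above 0 for both genes. Both were chosen for a positive difference on these same arrays, so the sign is no support for it and the ranges are a description. The difference ran from 0.28 to 0.83 for H2-Q7 (0.49 to 0.83 with 1 array omitted) and from 0.29 to 0.58 for Mzb1 (0.42 to 0.54 with 1 array omitted). The slide row block, which sets DHEA 1 alone against the control arrays, gave 0.28 for H2-Q7. Mzb1 fell to 0.29 with normexp correction (offset 50, on median signals, the column the files hold, where mean signals had been planned) and to 0.33 when scaled to the mRNA-accession probes. Above the median negative-named probe, H2-Q7 stood at 5.81 over all arrays, 4.80 with uncorrected median signals and 4.07 with normexp. Mzb1 stood at 2.39, 1.62 and 1.15 in the same order. Both settings change the signal column as well as the background correction, and both leave or add a constant in dim signals, which shrinks log ratios.

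With the replicate number as a block, the differences were 0.65 and 0.47 by construction, 0 mRNA-accession probes passed the adjusted threshold by limma and 11 had an unadjusted p under 0.05. The count of 14 before adjustment was 9 with each array centred on its circRNA median, 9 when scaled to the mRNA-accession probes, 3 with the slide column block, 7 with the slide row block and 6 to 15 with 1 array omitted (6 without DHEA 2, 9 without DHEA 1, control 1 or control 3). The 0 past the adjusted threshold became 4 with normexp, 1 with uncorrected median signals in place of processed ones and 0 to 4 with 1 array omitted (4 without control 2, 1 without control 1 or control 3). The 15 probes whose groups did not overlap became 26 without DHEA 3 and control 1, where fewer arrays make separation easier, and 17 to 21 with 1 array omitted. The cause of the other changes was not tested. Mzb1 stood closer to the median negative-named probe than H2-Q7 in every setting compared, and whether this limits Mzb1 more was not tested.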
